A study of Drosophila melanogaster with 27 samples.

Results

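The response to inbreeding depression that was shared by 4 inbred lines of *Drosophila melanogaster* was described from 24 of the 27 arrays of the series. Of these, 12 came from the sublines with the largest depression of pupa productivity (most depressed) and 12 from the sublines with the smallest (least depressed), with 3 of each level in each of the lines 5, 7, 12 and 15. The other 3 arrays held samples of the outbred control, drawn from the base population. Each line descended from 1 founding couple of that large outbred population of wild origin, was divided into 55 sublines and was sib mated for 8 generations, up to a mean inbreeding coefficient of about 0.7. Only 4 couples therefore stand behind the 24 inbred arrays. RNA was taken from a pool of whole adult males of each subline, without any mutation, transgene or treatment. The age of the males is not given in the sources used here, and the most depressed sublines were picked among those that still had enough flies.

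Expression was the log2 RMA value of a probe set, a group of short oligonucleotides that reports 1 transcript. Tests with limma covered the 9384 probe sets of highest maximum, with line in the model, and a probe set was called at a Benjamini-Hochberg adjusted p under 0.05. There were 1288 calls (13.7%), with 520 probe sets higher in the most depressed sublines (5.54%) and 768 lower (8.18%). In 1192 of them, 92.5% of all calls, the mean difference between the levels had the same sign in the 4 lines. These shared probe sets were 469 with higher expression in the most depressed sublines (5.00% of those tested) and 723 with lower expression (7.70%). The sign came from the same arrays as the call, so it is a description. Without regard to the call, 13.9% of the tested probe sets were higher in 4 of 4 lines and 17.2% were lower. The shared rises named 403 distinct genes and the shared falls 656. Here and below, rises and falls are differences of the most from the least depressed sublines, not from the control. A line by level interaction was called for 1 probe set, that of CG5062 (adjusted p = 0.023), out of 9384 (0.0107%), and 623 reached an unadjusted p under 0.05. None of the shared probe sets had a called interaction.

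Several systems that recur below have well known roles in the male fly. Digestive proteases of the midgut, seminal proteins of the accessory gland and serum proteins of the fat body all enter the endoplasmic reticulum (ER) through the Sec61 channel, are folded and glycosylated there and leave in coated vesicles. Fat body lipases and the adipokinetic hormone system govern how stored fat is spent, and the Toll and Imd pathways switch on immune genes through the NF-kappaB factors dl, Dif and Rel. As whole bodies were used, fewer cells of a type and less RNA per cell cannot be told apart.

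Some testis transcripts and those of the accessory gland were abundant in every array, which fits the label of adult males. The sperm tubulin betaTub85D lay between 12.09 and 12.75 and the sex peptide SP between 12.83 and 13.27 in the 24 inbred arrays. Of the other testis markers, Mst87F lay between 12.06 and 12.59 and dj between 7.87 and 10.53. The markers can (5.43 to 6.52) and aly (3.78 to 4.49) were low in all of these arrays. Transcripts of egg chambers, which males should lack, nevertheless appeared in some arrays. Up to 11 of 16 eggshell genes were more than 1 log2 unit above their median over the 27 arrays in 3 most depressed arrays, with 11 genes in line 7 (replicate 2), 6 genes in line 5 (replicate 3) and 5 genes in line 15 (replicate 2), against at most 1 gene in every other array. Yolk protein transcripts were raised in these 3 arrays and in 4 more inbred arrays, of which 2 were least depressed. Some sample codes in the labels hold a number of 80 or more, which was the case in 9 of the 12 least depressed and 1 of the 12 most depressed arrays. In line 12 every least depressed and no most depressed array had such a number, so level and code cannot be told apart there. In line 5 every least depressed array and replicate 3 of the most depressed had one. The meaning of the codes is not given in the sources used here, and the part of the codes and of the egg transcripts in the results was not tested. The arrays numbered 3 in the labels stood apart in some eggshell transcripts at background level. Cp16 was between 3.37 and 3.84 in 8 of these 9 arrays, controls included, against a median of 4.62 in the other 18, of which 2 were as low. No probe set was called between the 9 and the 18 arrays by limma, with 58 at an unadjusted p under 0.05, and with this number as a covariate 1140 of the 1192 shared probe sets were still called. Counts are given below also with the code as a covariate and without the 3 or the 7 arrays with egg transcripts.

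**Figure D1:**
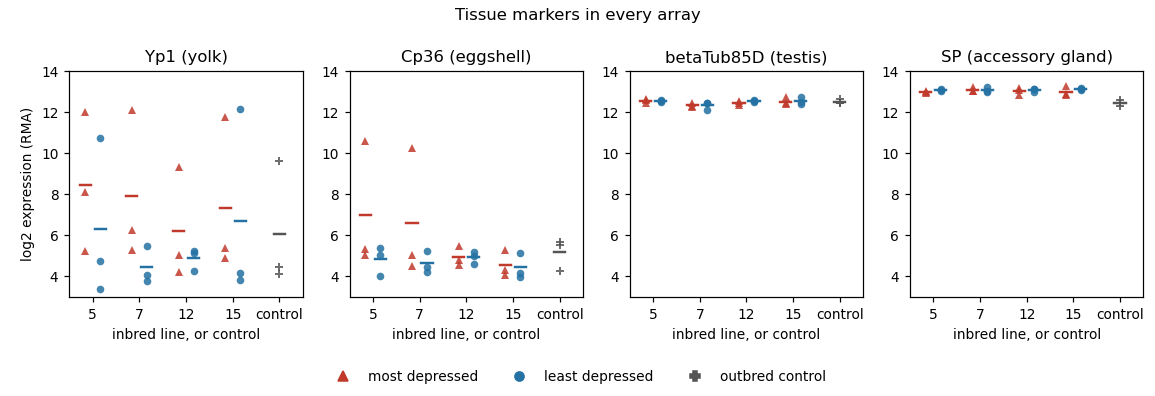
Log2 expression of 4 tissue markers in every array (y axis) by inbred line and level or in the outbred control (x axis), where points are arrays and bars group means. betaTub85D (testis) and SP (accessory gland) were high everywhere, while Yp1 (yolk) reached 12.12 in a most depressed and 12.15 in a least depressed array, and Cp36 (eggshell) reached 10.61 in a most depressed array.

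The shared differences were mostly small. Among the 469 shared rises the median difference was 0.245 on the log2 scale, and 8 were above 1. Among the 723 shared falls it was -0.303, and 18 were below -1. Over all 9384 probe sets the median was -0.01. Line 7 had the smallest median of the 4 lines in both sets, 0.189 for the rises and -0.213 for the falls, and line 12 the largest, 0.272 and -0.379. In line 12, however, level and sample code cannot be told apart. All 3 most depressed arrays lay beyond all 3 least depressed arrays in 4 of 4 lines for 24 of the shared rises and 63 of the shared falls (0.256% and 0.671% of the probe sets tested). With the code as a covariate 101 rises and 247 falls were both called and of 1 sign in the 4 lines, and 327 of the 1192 shared probe sets were still called, while 1191 kept their direction, as did 79.7% of all probe sets. The 1192 were picked by their direction in these same arrays, so the kept direction is a description and lends them no support. Without the 3 arrays with eggshell transcripts 945 of the 1192 were still called, and without the 7 arrays with eggshell or yolk transcripts 608. The median absolute difference of the 1192, 0.272 with line alone in the model, was 0.254 with the code as a covariate. It was 0.271 without the 3 and 0.269 without the 7 arrays, also a description.

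The secretory pathway fell in every line. Of 53 tested genes of the ER and early secretory pathway, 41 were lower in the most depressed sublines (77.4%, against 8.18% of all probe sets) and none was higher. All 41 had the same sign in the 4 lines. The median difference over the list was -0.273, against -0.01 over all probe sets, and its median within lines was -0.26, -0.20, -0.31 and -0.27 in lines 5, 7, 12 and 15. Averaged over the 53 genes and set relative to the mean of the inbred arrays, the level of a most depressed array ranged from -0.21 to -0.02 with a median of -0.14. That of a least depressed array ranged from -0.05 to 0.22 with a median of 0.13. Within each of the 4 lines all most depressed arrays were below all least depressed ones, and the 3 control arrays, from -0.04 to 0.02, lay between the medians of the levels. The count was 30 with the code as a covariate, 41 without the 3 arrays, 38 without the 7 arrays, and 40 to 42 when any single array was left out.

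The strongest member was TRAM, a membrane protein beside the translocation channel that helps nascent chains to enter the ER. Its expression in the most depressed arrays had a lowest value of 9.54, a median of 9.90 and a highest of 10.15, against 10.16, 10.56 and 10.84 in the least depressed arrays. The 12 most depressed arrays were thus all below the 12 least depressed ones, and the difference was -0.64 ± 0.061 (SE; adjusted p = 1.15e-06). The cargo receptor ergic53, a lectin that carries glycoproteins from the ER to the Golgi, ranged from 10.52 to 10.99 (median 10.79) in the most depressed and from 11.04 to 11.44 (median 11.24) in the least depressed arrays, again without overlap. Its difference of -0.48 ± 0.046 (SE; adjusted p = 1.15e-06) was nearly the same in the 4 lines, from -0.54 in line 5 to -0.44 in line 15. Both genes kept their call with the code as a covariate and without the 7 arrays.

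All steps of the pathway were represented among the falls. The 3 subunits of the translocation channel fell, with Sec61beta at -0.46, Sec61alpha at -0.40 and Sec61gamma at -0.38, and with them the signal recognition particle and its receptor, through Srp9, Srp19, Srp68, Srp72 and SrpRalpha. Signal peptidase subunits (Spase12, Spase25, twr) and subunits of the oligosaccharyl transferase that glycosylates new chains (Stt3B, OstDelta, Ostgamma) were lower as well. Among folding factors of the ER lumen, Hsc70-3, the BiP chaperone of the fly, differed by -0.36 and Gp93 by -0.45, and the disulfide isomerases CaBP1 and ERp60 by -0.54 and -0.24. The largest difference of the list, with a larger error, was that of wbl (-0.65 ± 0.133, SE), a relative of the disulfide isomerases with a role in dorsoventral patterning. Coat subunits of retrograde vesicles (alphaCOP, betaCOP, gammaCOP, deltaCOP and epsilonCOP) fell by 0.19 to 0.29. Of the sensors of unfolded proteins, none was called: Ire1 differed by 0.11, PEK by -0.03 and Atf6 by -0.07, and Herp, a degradation factor of the ER, by 0.10.

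**Figure D2:**
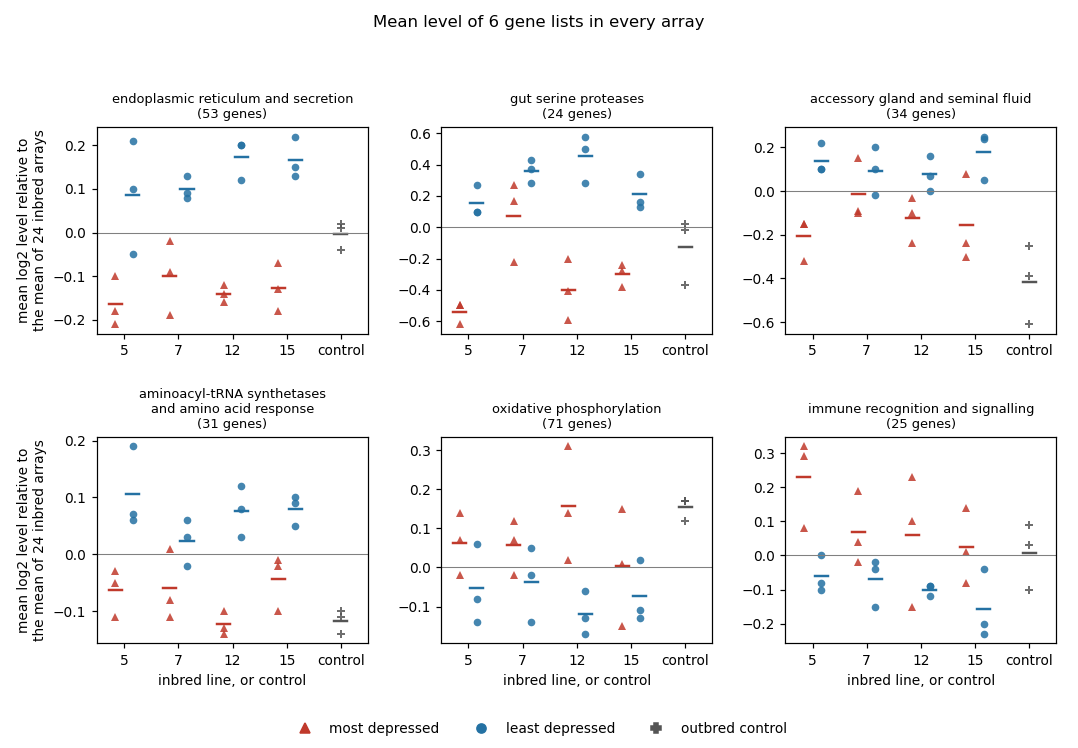
Mean log2 level of 6 gene lists in every array, relative to the mean of the 24 inbred arrays (y axis), by inbred line and level or in the outbred control (x axis), with a point for each array and bars for group means. For the ER and secretion list (from -0.21 to -0.02 against -0.05 to 0.22) and for the gut serine proteases the most depressed arrays were below the least depressed arrays within each of the 4 lines.

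Genes that charge tRNAs and make amino acids also fell. Of 31 tested genes, 14 were lower (45.2%, against 8.18% of all probe sets), all in the 4 lines, and 1 was higher. The median difference was -0.146. In the least depressed sublines 16 of the 31 genes were called higher and 1 lower than in the control. In the most depressed, 3 were higher and 2 lower. The shares over all probe sets were 30.8% and 15.0% in the least and 26.1% and 13.1% in the most depressed. Relative to the mean of the inbred arrays, the list lay at -0.14 to -0.10 in the control. Its median was -0.09 in the most and 0.06 in the least depressed arrays. AsnS, which makes asparagine, was the most changed. It ranged from 7.29 to 8.69 (median 7.93) in the most depressed and from 8.54 to 9.34 (median 8.82) in the least depressed arrays, and the levels were apart within lines 5, 12 and 15 but overlapped in line 7. The difference was -0.92 ± 0.098 (SE; adjusted p = 5.75e-06), with -1.13 in lines 5 and 12, -0.95 in line 15 and -0.45 in line 7. The control arrays, with a median of 7.69, were close to the most depressed sublines (adjusted p = 0.271) and below the least depressed ones (adjusted p = 2.31e-06).

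The lowered synthetases load cytosolic tRNAs. AlaRS (-0.33), SerRS (-0.30), GlyRS (-0.27) and AsnRS (-0.24) were among them, and in AlaRS, GlyRS and AsnRS the 2 levels did not overlap in any line. TyrRS was the exception, with a rise of 0.14 ± 0.034 (SE; adjusted p = 0.00792) in the 4 lines. None of the mitochondrial synthetases of the list was called, nor were the amino acid sensors Gcn2 (-0.08) and crc, the ATF4 factor of the fly (0.02). The fall was called for 4 of the 14 genes with the code as a covariate and for 14 without the 7 arrays.

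Digestive proteases of the gut had the lowest median of the lists with several genes, -0.469 over 24 genes. Of these, 15 fell (62.5%, against 8.18% of all probe sets), all in the 4 lines, and none rose. The list level was -0.62 to 0.27 in the most depressed arrays (median -0.33) and 0.10 to 0.58 in the least depressed ones (median 0.28), with no overlap within a line, although the levels nearly touched in line 7 (0.27 against 0.28). In that line the list median was -0.18, against -0.65 in line 12. The control arrays lay at -0.37 to 0.02. In the least depressed sublines 11 of the 24 genes were called higher and 1 lower than in the control. In the most depressed, 4 were higher and 2 lower. The shares over all probe sets were 30.8% and 15.0% in the least and 26.1% and 13.1% in the most depressed. Jon25Bii, a chymotrypsin-like enzyme of the Jonah family, ranged from 9.43 to 11.64 (median 10.03) in the most depressed and from 10.96 to 13.20 (median 11.94) in the least depressed arrays. Its difference of -1.68 ± 0.265 (SE; adjusted p = 0.000179) came from lines 5, 12 and 15, each at -2.20 or below, while line 7 was at -0.01, so that the shared sign of this gene rests on a value next to 0.

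Jon99Fi fell by 2.19 on average, with a wide spread. Its most depressed arrays ranged from 3.33 to 12.12 with a median of 9.71, and its least depressed arrays from 10.24 to 12.64 with a median of 11.71. The lowest array was replicate 2 of line 5, and the adjusted p of 0.0332 was lost under 19 of 45 alternatives. Jon25Bi (-1.15), Jon65Aii (-1.14), Jon44E (-0.95), Jon25Biii (-0.77) and Jon65Ai (-0.65) were lower too, with Jon65Aiii and Jon65Aiv, the brightest of the family, at -0.30 and -0.35. Among trypsins, lambdaTry differed by -0.55, without overlap of the levels in any line, followed by zetaTry (-0.56), etaTry (-0.44), kappaTry (-0.33) and iotaTry (-0.31). Not all gut proteases were called: alphaTry differed by -0.05, Jon74E by 0.10 and Jon99Ci by -0.42 (adjusted p = 0.40). With the code as a covariate 4 of the 15 were called, and without the 7 arrays 11.

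The other genes among the 15 largest falls, outside the lists of gut serine proteases and lysosomal enzymes, mostly carried a number as their name. Whether some of them also encode digestive enzymes is not told by these names. CG7025 ranged from 5.98 to 8.10 in the most depressed and from 7.86 to 9.14 in the least depressed arrays, and fell by 1.33 ± 0.188 (SE; adjusted p = 6.85e-05) without overlap in any line. CG7631 fell by 1.37 (adjusted p = 1.8e-05), and lectin-24A, a C-type lectin, by 1.31. CG13947 (-1.46), CG11912 (-1.13), CG3106 (-1.08) and CG5767 (-1.04) and the noncoding alphagamma-element RNA (lncRNA:alphagamma-element:CR32865, -1.55) completed the set. The alphagamma-element is known as a heat-inducible transcript, and its call was lost with the code as a covariate (adjusted p = 0.127), as were those of lectin-24A (0.101) and CG13947 (0.062), and that of lectin-24A also without the 7 arrays. The probe set of CG13947 carries a suffix that marks possible cross-hybridization, as does that of the alphagamma-element.

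The calls of the lysosomal list split by enzyme type. Of 14 tested genes, 4 rose (28.6%) and 5 fell (35.7%), against 5.54% and 8.18% of all probe sets. All 5 tested lysosomal alpha-mannosidases, which trim mannose from glycoproteins, fell in the 4 lines: LManIII differed by -2.46, LManV by -1.59, LManVI by -1.53, LManI by -0.76 and LManII by -0.43. LManIII, the largest fall of all, ranged from 3.79 to 9.71 (median 7.28) in the most depressed and from 7.77 to 11.11 (median 9.57) in the least depressed arrays. LManV had the smallest p of the family, with -1.59 ± 0.214 (SE; adjusted p = 4.09e-05), and its levels did not overlap in 3 of the 4 lines. In line 7, 1 most depressed array (11.60) reached the least depressed ones. In contrast, the cathepsins CtsL1 (0.27), CtsF (0.25) and CtsB (0.16), which break down proteins in lysosomes, rose in the 4 lines, and the lipase gene Lip4 (0.51) was called with line 12 at -0.04. With the code as a covariate Lip4 (adjusted p = 0.111) and LManII (0.051) lost their call. CtsB lost it without the 3 arrays with eggshell transcripts (adjusted p = 0.078) and without the 7 arrays (0.211). The other calls of the list held in these settings. Of the NPC sterol-binding proteins, only Npc2d was called among 8 tested (12.5%, against 8.18% lower over all probe sets). It fell by 0.93 ± 0.119 (SE; adjusted p = 2.36e-05), with a median of 10.22 in the most depressed and 11.20 in the least depressed arrays, without overlap in any line.

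**Figure D3:**
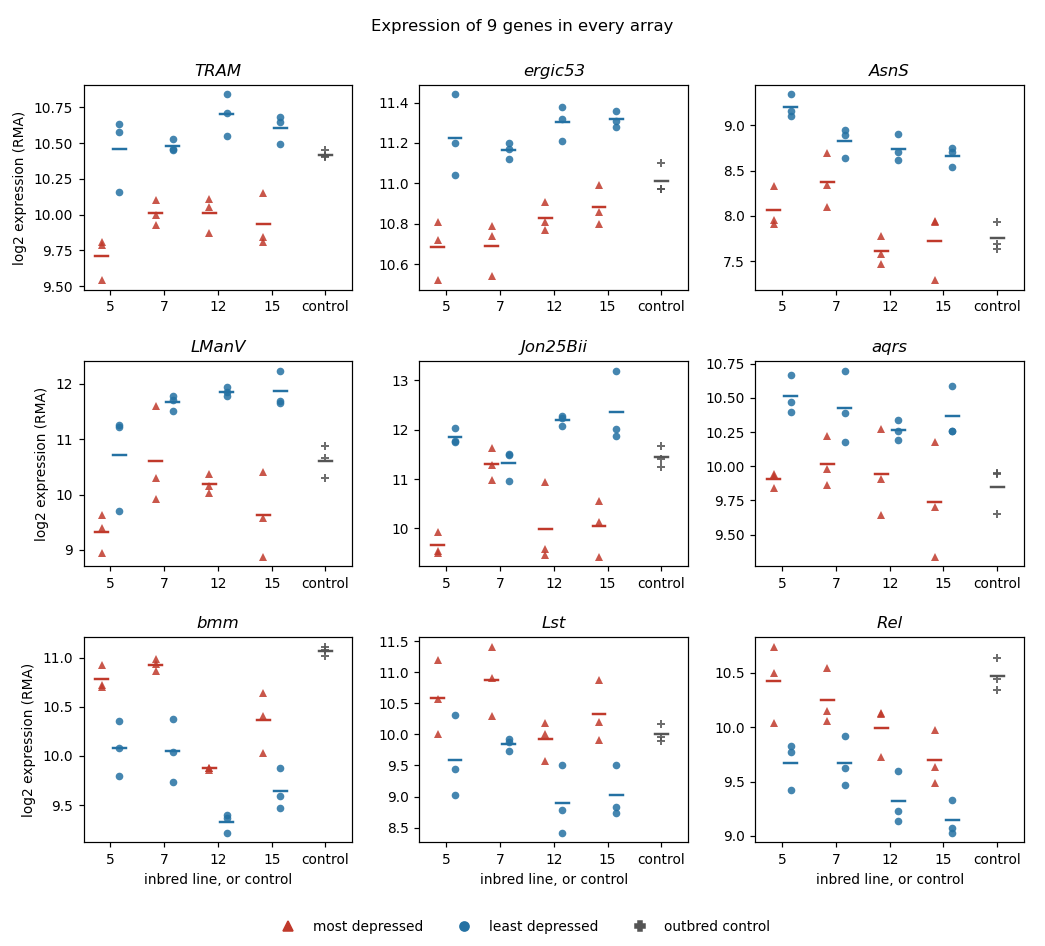
Log2 expression of 9 genes in every array (y axis) by inbred line and level or in the outbred control (x axis), with a point for each array and bars for group means. TRAM, ergic53, AsnS, LManV, Jon25Bii and aqrs were lower and bmm, Lst and Rel higher in the most depressed sublines. Jon25Bii overlapped between the levels in line 7, where its difference was -0.01.

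Seminal fluid genes of the accessory gland were lower in the most depressed sublines, by small amounts. Of 34 tested genes, 20 fell (58.8%, against 8.18% of all probe sets) and none rose, and 19 of the 20 had the same sign in the 4 lines. The exception was prd, a transcription factor needed for accessory gland growth, at 0.12 in line 15. The median difference of the list was -0.252, with -0.36 and -0.34 in lines 5 and 15 and -0.10 and -0.15 in lines 7 and 12. The list level of the most depressed arrays ranged from -0.32 to 0.15 and that of the least depressed arrays from -0.02 to 0.25, with separate levels within 2 of the 4 lines. Both were above the control arrays, from -0.61 to -0.25, except that 2 most depressed arrays, at -0.32 and -0.30, reached into the range of the control. In the most depressed sublines 20 of the 34 genes were called higher than in the control, and in the least depressed 26, against backgrounds of 26.1% and 30.8% of all probe sets.

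Several of these genes act together with the sex peptide in mated females. The sex peptide network genes aqrs (-0.49), antr (-0.38), Sems (-0.38), CG9997 (-0.38), lectin-46Ca (-0.38) and lectin-46Cb (-0.24) fell, whereas intr (-0.09) and SP itself (-0.07) were not called. The gene aqrs ranged from 9.34 to 10.27 (median 9.92) in the most depressed and from 10.18 to 10.70 (median 10.36) in the least depressed arrays, with overlap only at 10.18 to 10.27 (adjusted p = 0.00061). Acp36DE, which binds sperm and helps its storage, fell by 0.28, Acp76A, a serpin, by 0.45 and Sfp38D by 0.59. Acp53C14a and Acp53Ea, close to the top of the array scale at medians of 13.50 and 13.43 in the most depressed sublines, fell by 0.11 and 0.13. Mst57Dc, the single gene called of 44 on the testis list, fell by 0.24 and is itself known from the accessory gland. The count of lowered seminal fluid genes was 10 with the code as a covariate and 6 without the 7 arrays.

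Among transferases of detoxification, 9 of 52 glutathione and glucuronosyl transferases fell in the 4 lines (17.3%) and 2 rose (3.85%). The shares over all probe sets were 8.18% and 5.54%. The falls were mainly Ugt genes, with Ugt37A3 at -0.81, Ugt37A2 and Ugt304A1 at -0.57 and Ugt50B3 at -0.50. GstD7 was lower by 0.61, with line 7 at -0.02, and GstZ2 was higher by 0.45. Of 66 cytochrome P450 genes, Cyp4d1 (-0.55) and Cyp4ad1 (-0.42) fell and Cyp18a1, which inactivates the moulting hormone, rose (0.26), or 3.03% lower and 1.52% higher, against 8.18% and 5.54% of all probe sets. Heat shock and chaperone genes contributed 4 falls among 13 (30.8%): l(2)efl (-0.29), Hsp60A (-0.22), Hsp110 (-0.21) and Hsc70-5 (-0.16). Of these, Hsp60A and Hsc70-5 work in mitochondria. With the code as a covariate, 2 of the 9 transferases, 1 of the 4 chaperones and, of the 3 P450 genes, Cyp4d1 were called, and without the 7 arrays 5 transferases and 3 chaperones were lower.

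**Figure D4:**
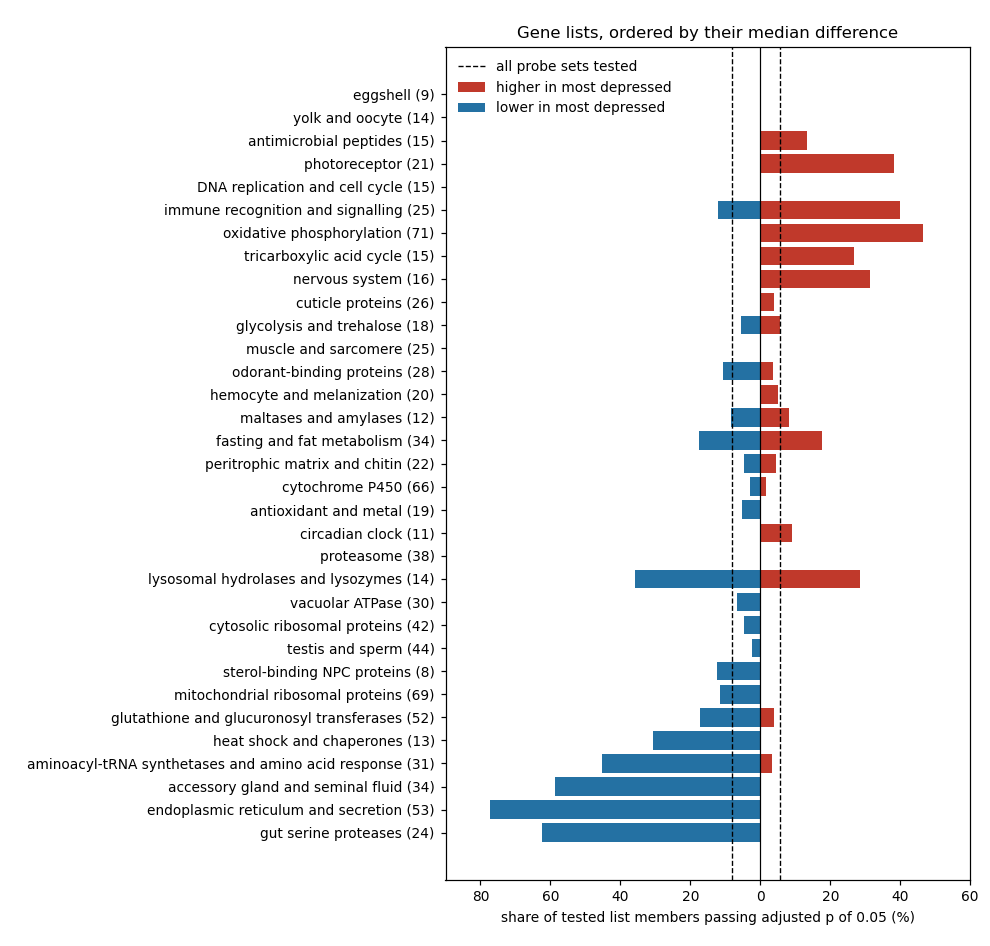
Share of the tested members of each gene list (number in brackets) that were called higher (red, right) or lower (blue, left) in the most depressed sublines, in percent on the x axis, with the lists ordered by their median difference. Dashed lines mark the shares over all probe sets, 5.54% and 8.18%. The ER, gut protease and accessory gland lists extend farthest to the left.

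The largest shared rises included serum, hormone and lipid genes. Lsp2, a serum protein of the fat body that stores amino acids, rose by 1.37 ± 0.378 (SE; adjusted p = 0.0167). Its most depressed arrays ranged from 7.07 to 12.94 (median 11.20) and its least depressed arrays from 7.86 to 10.93 (median 9.67). The levels were apart in lines 5, 12 and 15, but in line 7 the difference was 0.03, with the lowest and a high array (11.22) both among its most depressed sublines. The call was lost with the code as a covariate (1.17, adjusted p = 0.283) and without the 7 arrays (0.80, adjusted p = 0.296). Fbp1 (1.99, adjusted p = 0.08) and Fbp2 (1.85, adjusted p = 0.07), also known from the larval fat body, were not called.

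CG5966 rose by 1.19 ± 0.188 (SE; adjusted p = 0.000188). It ranged from 8.61 to 10.81 (median 9.31) in the most depressed and from 7.67 to 9.31 (median 7.98) in the least depressed arrays, and the levels were apart within every line. Lst, the hormone limostatin that lowers insulin release in fasted flies, ranged from 9.58 to 11.41 (median 10.24) in the most depressed and from 8.42 to 10.31 (median 9.48) in the least depressed arrays. Its difference was 1.09 ± 0.175 (SE; adjusted p = 0.000224), between 1.00 and 1.31 in each line. The phospholipase gene GIIIspla2 rose by 0.79 and Hpd, an enzyme of tyrosine breakdown, by 0.73 ± 0.085 (SE; adjusted p = 9.18e-06). Hpd did not overlap between the levels in any line, as also found for CG13796 (0.81) and Cpr67Fb (1.33), a cuticle protein.

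Further large rises were less even. CG11854 (1.26) had 2.62 in line 15 and 0.36 in line 7, and both probe sets of CG34040 (0.97 and 0.94, adjusted p = 0.046 and 0.0497) rested on line 5, with 2.82 and 2.66 there and 0.04 and 0.09 in line 12. Mlp60A, a muscle LIM protein, was higher in a pair of its probe sets (1.08 and 1.03), whereas the brightest probe set of the gene, which stood for it in the muscle list, differed by -0.05 (adjusted p = 0.76). Its 2 called probe sets lost the call with the code as a covariate (adjusted p = 0.479 and 0.571) and without the 7 arrays, as did both of CG34040. CG13482 (0.84) and CG31778 (0.78), both higher in the 4 lines, completed the set. With the code as a covariate CG11854 (adjusted p = 0.07), CG5966 (0.068), CG13796 (0.065), CG13482 (0.06), Lst (0.05) and GIIIspla2 (0.05) were no longer called, and without the 7 arrays pirk (0.082).

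**Figure D5:**
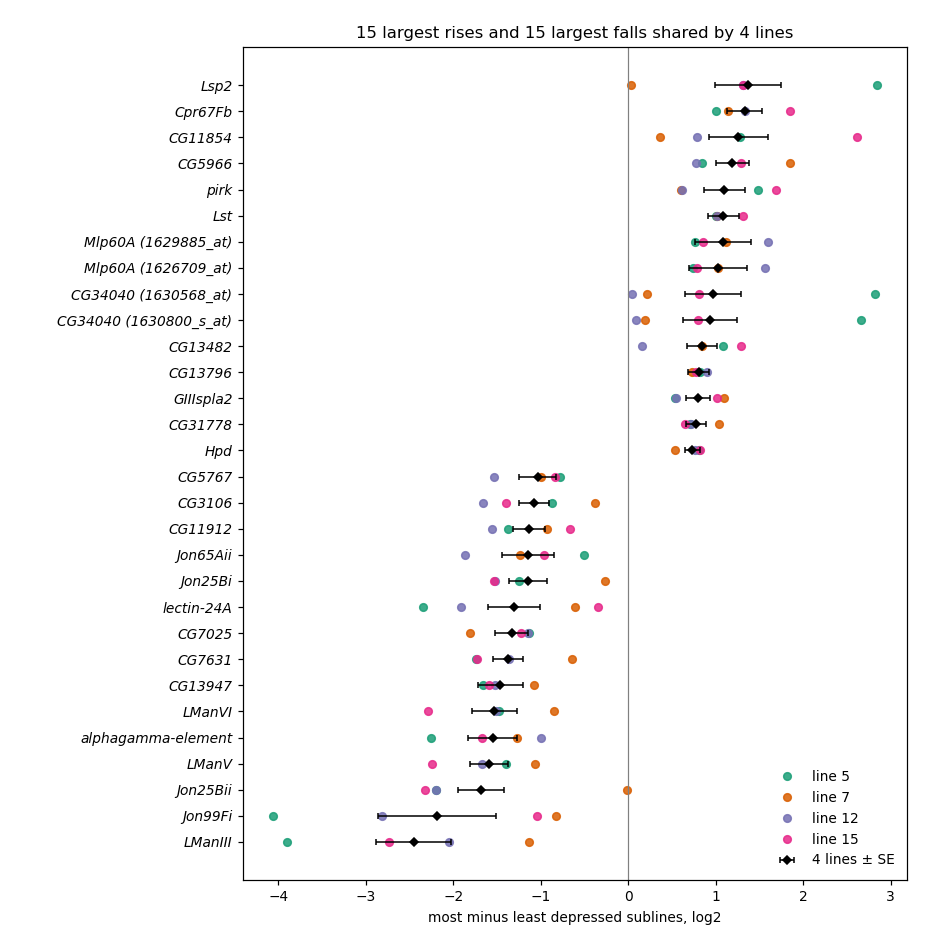
Difference between most and least depressed sublines on the log2 scale (x axis) for the 15 probe sets with the largest shared rise and the 15 with the largest shared fall (y axis). Coloured points are the 4 lines and black diamonds the difference with line in the model, with its SE. Hpd and CG13796 were even across lines, while Lsp2 (2.84 in line 5, 0.03 in line 7) and Jon25Bii (-0.01 in line 7) were not.

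Genes of fasting and fat metabolism moved both ways, with 6 of 34 higher and 6 lower. Each was 17.6% of the list, against 5.54% higher and 8.18% lower over all probe sets. The main fat lipase bmm rose from 9.22 to 10.38 (median 9.77) in the least depressed to 9.86 to 10.98 (median 10.67) in the most depressed arrays. Its levels were apart within every line, with a difference of 0.71 ± 0.08 (SE; adjusted p = 7.68e-06) that lay between 0.54 and 0.87 by line. The control arrays (median 11.08) were higher than both. The gene whd, the carnitine transferase that takes fatty acids into mitochondria, rose by 0.48, Pepck1, of glucose synthesis, by 0.45 and Lpin by 0.27. LpR2 rose by 0.40 over the lines but was at -0.03 in line 5, and Lsp2 is the other member.

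Among the lower ones, FASN3 (-0.52), FASN1 (-0.25) and ACC (-0.26) build fatty acids, Mtp (-0.41) loads lipid onto lipoproteins, mag (-0.55) is a gut lipase and Gnmt (-0.45) disposes of methyl groups. All 6 fell in the 4 lines, FASN1 and ACC with only -0.04 and -0.02 in line 5. The adipokinetic hormone Akh (0.07), its receptor AkhR (-0.21) and foxo (0.13) were not called. With the code as a covariate 3 genes of the list were called higher and 2 lower, with bmm (0.69, adjusted p = 0.004) and Mtp (-0.43, adjusted p = 0.046) among them, and no other of these 6 falls kept its call.

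Of 25 tested genes of immune recognition and signalling, 10 rose (40%) and 3 fell (12%), against 5.54% and 8.18% of all probe sets. The median difference was 0.171, and 9 of the 10 rises had the same sign in the 4 lines. Rel, the NF-kappaB factor of the Imd pathway, ranged from 9.49 to 10.74 (median 10.09) in the most depressed and from 9.03 to 9.92 (median 9.44) in the least depressed arrays, apart within every line (0.64 ± 0.09, SE; adjusted p = 6.85e-05). The negative regulators of that pathway pirk (1.10) and PGRP-LF (0.68) and its adaptor Tab2 (0.30) rose as well. So did members of the Toll pathway, with Tl at 0.37, its inhibitor cact at 0.28, dl at 0.26 and the recognition protein GNBP3 at 0.20, and the JAK/STAT factor Stat92E at 0.19. GNBP2 (0.23) was called with line 7 at -0.01.

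PGRP-SC2, a secreted amidase that degrades peptidoglycan in the gut, fell by 0.82 ± 0.174 (SE; adjusted p = 0.00235), with Dredd (-0.15) and PGRP-LE (-0.10). Of 15 antimicrobial peptide and Bomanin genes, BomBc2 (0.57) and BomS6 (0.41) rose, or 13.3% against 5.54% of all probe sets. Drs (0.08), Mtk (0.20), Def (-0.30) and DptB (0.16) were not called. BomBc2 ranged from 11.69 to 12.43 in the most depressed and from 11.10 to 11.72 in the least depressed arrays and was apart within every line. Spn28Dc, a serpin that restrains melanization, rose by 0.49 and was the single call of 20 hemocyte and melanization genes, or 5% against 5.54% of all. It differed by 0.21 with the code as a covariate (adjusted p = 0.571). With the code as a covariate 3 of the 10 rises and 1 of the 3 falls of recognition and signalling were called, and Rel (0.41) was at an adjusted p of 0.051. Without the 3 arrays with eggshell transcripts the counts stayed at 10 and 3. Without the 7 arrays 5 rises and 1 fall were called, and BomS6 lost its call (adjusted p = 0.055).

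Subunits of oxidative phosphorylation rose in number but little in size. Of 71 tested nuclear genes, 33 were higher (46.5%, against 5.54% of all probe sets), all in the 4 lines, and none was lower. The median difference was 0.166. The largest were COX7AL2 (0.32), ND-15 (0.28), ND-18 (0.28) and ND-B17.2 (0.27), and each of the 5 complexes had members, such as SdhD (0.24), UQCR-6.4 (0.22), COX5B (0.20) and ATPsynCF6 (0.24). ND-B17.2, a subunit of complex I, ranged from 12.07 to 12.88 in the most depressed and from 12.00 to 12.42 in the least depressed arrays, with an adjusted p of 0.00279. The levels of the list overlapped in 3 of the 4 lines, at -0.15 to 0.31 against -0.17 to 0.06, and the control arrays lay at 0.12 to 0.17. Some copies named for their likeness to a subunit, such as COX6CL (-0.06), ND-51L1 (-0.01) and ATPsynCF6L (-0.01), were not called.

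This count was unstable. It was between 18 and 42 when single arrays were left out and fell to 18 to 21 without any 1 of 10 arrays. Among the most depressed these were replicate 2 of lines 5, 7 and 12, replicate 3 of line 12 and replicate 1 of line 15, and among the least depressed replicate 1 of line 5, replicate 2 of lines 7, 12 and 15 and replicate 3 of line 12. No subunit was called with the code as a covariate, 3 were called without the 7 arrays and 18 with no filter on low values. The median difference of the list, 0.166 above, was 0.09 with the code as a covariate. It was 0.182 without the 7 arrays, and 0.165 over 74 genes with no filter. The count of calls thus changed without a smaller median in the last 2 settings, apart from 0.165 against 0.166. In the tricarboxylic acid cycle 4 of 15 genes rose (26.7%, against 5.54% of all probe sets), and none with the code as a covariate. They were mAcon1 (0.21), SdhD, SdhC (0.18) and ScsbetaA (0.14). The count was 2 without any 1 of, among the most depressed, replicate 2 of line 7, replicates 2 and 3 of line 12 and replicate 1 of line 15 and, among the least depressed, replicate 2 of line 7 and replicate 1 of line 12.

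Genes of the eye and of neurons rose less evenly across lines. Of 21 photoreceptor genes 8 were higher (38.1%, against 5.54% of all probe sets). Only 4 of them had the same sign in the 4 lines: retinin (0.35), Galphaq (0.35), Gbeta76C (0.31) and ninaG (0.18). The other 4, chp, inaD, rdgA and inaC, were at -0.02 to -0.14 in line 7. Gbeta76C, the beta subunit of the G protein of phototransduction, had the smallest adjusted p (0.00171). Of 16 neuronal genes 5 were higher (31.2%). The calcium channel gene cac (0.33), the potassium channel gene Sh (0.33), unc-13 (0.26) and Snap25 (0.21) rose in the 4 lines, and nrv3 (0.18) in 3. None of these 13 calls held with the code as a covariate, and without the 3 arrays with eggshell transcripts the counts were 4 and 3, and without the 7 arrays 1 and 0. With the code as a covariate the median difference was 0.186 over the photoreceptor list, against 0.201 without it. Over the neuronal list it was 0.086, against 0.16. The neuronal count was 3 without any 1 of replicate 2 of line 12 among the most depressed and, among the least depressed, replicate 1 of line 5, replicates 1 and 2 of line 12 and replicate 2 of line 15.

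Several other lists held few calls, beside the background of 5.54% and 8.18%. None of 38 proteasome, 25 muscle and 15 DNA replication genes was called, whereas 1 of 44 testis genes and 2 of 30 subunits of the vacuolar ATPase fell. Of 69 mitochondrial ribosomal protein genes 8 fell (11.6%), a count that was 0 with the code as a covariate, 13 without the 3 arrays and 1 without the 7 arrays, and 5 without line 5 replicate 1 of the least depressed. Eggshell genes had a median of 0.903 over 9 tested genes, and yolk and oocyte genes 0.456 over 14, but no gene of either was called. The filter on the maximum kept some eggshell genes only through a few most depressed arrays. Cp36, for example, reached 10.61 there, against at most 5.40 in least depressed and 5.70 in control arrays. The median of 0.903 thus depends on the filter. With no filter it was 0.469 over 16 genes, with 1 gene called higher. The median of the 9 tested eggshell genes was 0.02 in line 12 and 0.26 in line 15, and higher in lines 5 (1.01) and 7 (1.70).

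Shared genes were found on all chromosome arms. Shared rises made up 4.03% of the tested genes of arm 3R to 6.13% of arm 3L and shared falls 7.46% of arm 2R to 8.58% of arm 3L, with 4.63% and 8.52% on the X. On the small chromosome 4 there were 4 rises and 1 fall among 48 genes. Runs of at least 3 neighbouring protein-coding genes that all belonged to the shared set were found 8 times among the falls and never among the rises. They included Jon25Bi to Jon25Biii, Jon65Ai to Jon65Aiv, the trypsins lambdaTry, kappaTry, zetaTry and etaTry, and Acp53C14a, Acp53C14b, Acp53Ea and Acp53C14c, and with lectin-46Ca and lectin-46Cb their neighbour CG34033. The others were CG17026 to CG17029, the 5 genes from CG18234 to CG32199, and CG8773, CG8774 and CG32473. Members of such families are alike in sequence and may share hybridization signal. The falls named 656 genes and the rises 403, so more runs could arise among the falls. No background count of runs was made, and the counts of runs are a description.

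The control placed the levels on an outer scale. Of all probe sets, 26.1% were called higher and 13.1% lower in the most depressed sublines than in the control, and 30.8% and 15.0% in the least depressed sublines. Both comparisons share the 3 control arrays, of which replicate 3 held raised yolk transcripts. With each array centred on its median, the first pair of counts changed from 2450 and 1227 to 1873 and 1487 and the second from 2893 and 1405 to 2056 and 1729. Among the 723 shared falls the control mean was below both levels in 385, between them in 260 and above both in 78. The least depressed sublines were called higher than the control in 455 and lower in 11, and the most depressed higher in 162 and lower in 123. Among the 469 shared rises the control mean was above both levels in 221, between them in 120 and below both in 128, with the least depressed sublines called lower in 229 and higher in 50 and the most depressed lower in 89 and higher in 138. The least depressed sublines were the farther from the control in 73.3% of the shared falls and 59.1% of the shared rises, against 60.7% of all probe sets tested.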

How the data were processed

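Total RNA of whole adult males was hybridized to Affymetrix Drosophila arrays. Per the submitters' notes, the authors ran RMA (background adjustment, quantile normalization, summary by probe set) with Partek 7.3.3 and affy, and deposited log2 values for the 27 arrays and, normalized apart, for the 24 inbred arrays. Quantile normalization gives all arrays 1 distribution, so a global change would not be seen. After removal of 183 control probe sets, the 9384 of the remaining 18769 with the highest maximum over the 27 arrays (at least 7.06) were kept here, in place of present calls, which were not used here. Limma 3.58.1 in R 4.3.3 was fitted with a variance trend to line and level in the 24 arrays, to 8 group means for values within lines and the interaction, and to 9 group means against the control, two-sided, with an adjusted p threshold of 0.05. The fit was checked on simulated data of this design, with independent noise and planted changes. The simulation held no sample code and no egg transcripts, so it cannot speak to their part in the calls. Arrays carry no read depth, and each group held 3 sublines.

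Names came from the platform annotation, updated by gene identifier: of the probe sets, 13647 match 1 gene, 402 several and 4720 none. A gene of a list was represented by its brightest probe set. Named genes were the 15 largest shared rises and falls and, of each of 35 lists, the 4 called members with the largest difference, and further list members were chosen after their values were seen. The members and lists were chosen with earlier results of these data known, and the lists carry no test. A planned search of promoter sequences was not run, as no sequences were at hand. Alternatives were other filters, the 24-array table, array weights, robust and trend-free variance, median centring, a replicate block, the sample code, arrays and lines left out. Within lines, replicate numbers of the labels did not pair the sublines: the correlation of deviations exceeded 0.1 in 2 of 12 pairs. The arrays numbered 3 were examined as a set across lines, after the data were seen.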

Additional observations from a re-analysis of the deposited data

How the results depend on the processing

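With the sample code as a covariate the probe sets called higher and lower in the most depressed sublines numbered 119 and 251, of which 101 and 247 had the same sign in the 4 lines. In lines 7 and 15 with codes under 80 only, 0 and 0 were called by limma, with 602 at an unadjusted p under 0.05, and 1188 of the 1192 shared probe sets kept their direction, against 76.4% of all. Only 6 most and 3 least depressed arrays remained there. The 1192 were picked by their direction in these same arrays, so kept directions, here and below, are a description. Without the 7 arrays with eggshell or yolk transcripts 185 were higher, 182 of them in the 4 lines, and without line 5, 12 or 15 the higher calls were 251, 221 and 291, with 377 lower calls without line 12. A stricter filter on the maximum, which left 4692 probe sets to test, gave 505 lower calls, 469 of them in the 4 lines. Median centring gave 687 higher and 700 lower calls. Leaving out single arrays gave 413 to 667 higher and 679 to 834 lower calls, of which 380 to 612 and 631 to 763 had the same sign in the 4 lines. Leaving out single controls gave 1614 to 1880 higher and 815 to 1018 lower calls for the most depressed sublines, lowest without replicate 1, and no filter gave 2257 lower calls for the least depressed ones. The interaction was called for 2 probe sets in the 24-array table, a setting chosen after seeing the data, as were the alternatives for the gene lists. Where no cause is given, the cause was not tested. With the replicate number as a block, 384 were higher and 653 lower, 359 and 630 of them in the 4 lines. With the arrays numbered 3 as a covariate, 486 were higher and 738 lower. Arrays numbered 1 and 2 only gave 372 and 555, and those numbered 3 only, 4 against 4, gave 0 and 0 by limma, with 851 at an unadjusted p under 0.05 and 1183 of the 1192 in the same direction, against 70.7% of all. Among the named genes, RpS12, called lower (-0.16), was at 0.038 with codes under 80 only, and TotC, not called (-0.63), was at 0.271 without line 15 and at 0.132 in arrays numbered 3 only. Prosbeta6, not called, was at -0.001 in arrays numbered 1 and 2 only.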
